A study of Homo sapiens with 3 samples.

Results

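MM.1S cells that had shared a dish with stromal cells were compared, across all genes, with MM.1S cells grown alone. MM.1S is an established line of human multiple myeloma, a cancer of antibody-secreting plasma cells, and HS-5 is an established line of human bone marrow stromal cells. Of the 11535 cells with at least 200 detected genes in the series, 5594 were MM.1S cells, 3947 of them from the MM.1S monoculture and 1647 from the coculture with HS-5 cells. The coculture had lasted 4 h according to the labels, and no treatment was given to any culture. A figure legend of the study gives a shorter time, and which of them holds was not settled here. There was 1 library of each of the 3 cultures (MM.1S alone, HS-5 alone, both together), each a line rather than cells of several donors, so no difference has a replicate check, no test was made, and culture and library cannot be told apart. Transcripts were counted by Drop-seq, a method that isolates cells in droplets together with barcoded beads and tallies RNA molecules by their unique molecular identifiers (UMIs).

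Every kept cell of the MM.1S monoculture was taken as MM.1S, and cells of the coculture were assigned by genes that mark either line. A line gene had at least 50 UMIs per 1000000 (CPM) in its own monoculture and at least 50 times the level of the other, which gave 82 MM.1S genes and 231 HS-5 genes. In each cell the share of UMIs on either set was divided by its median in that line's monoculture, and a cell with an HS-5 part of the sum under 0.2 was called MM.1S. Of the 3856 cells of the coculture, 1522 lay under 0.1, 125 between 0.1 and 0.2, 24 between 0.2 and 0.3, 104 in all between 0.2 and 0.8 and left unassigned, and 2105 above 0.8, the HS-5 cells. The highest HS-5 part of any cell of the MM.1S monoculture was 0.158. Doublets that hold much RNA of both lines would lie in the unassigned range, and doublets within a line were not removed.

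Myeloma cells in the marrow depend on stromal cells, which hold them by adhesion receptors and supply cytokines such as interleukin-6. Interleukin-6 binds IL6R and the shared subunit gp130 (IL6ST), whose JAK kinases phosphorylate STAT3. Phosphorylated STAT3 enters the nucleus and raises a group of early genes, among them its own feedback inhibitor SOCS3. Plasma cells themselves are known for devoting much of their mRNA to immunoglobulin chains and to the endoplasmic reticulum (ER) that folds them.

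The 5 marker genes of the line were present in both cultures. The lambda light chain constant gene IGLC2 had 36552 CPM alone (95% Poisson interval 36436 to 36668) and 18558 in coculture (18327 to 18791), and IGLC3 had 8170.3 and 1867. JCHAIN, which joins antibody units, had 6664 and 4138 CPM, the ER protein gene MZB1 2526 and 1776, and TNFRSF17, the surface receptor BCMA, 111 and 81.9. None of the 5 exceeded 0.977 CPM in the HS-5 monoculture. All 5 were lower in cocultured MM.1S cells, and these genes also helped to choose those cells. Intervals here and below are exact and cover counting error only.

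Depth and free RNA differed between the cultures. MM.1S cells had a median of 2201 UMIs and 1065 genes in monoculture and of 668 UMIs and 479 genes in coculture, and their sums held 10433017 and 1330285 UMIs, so that 3 UMIs were worth 0.288 and 2.26 CPM. None of the cell barcodes of the monoculture recurred among the cocultured MM.1S cells. Of 20 stromal marker genes, the collagen gene COL1A1 had 1.63 CPM in MM.1S monoculture, 8.27 in cocultured MM.1S cells and 613 in cocultured HS-5 cells, and THY1, LUM and POSTN were at 0 UMIs in cocultured MM.1S cells. Summed, the 20 markers had 3992 and 4302 CPM in MM.1S cells, most of it S100A6 and FN1, which both MM.1S cultures held. From the 231 HS-5 genes, 1.73% of the UMIs of cocultured MM.1S cells were estimated to be HS-5 RNA. Of the genes described below as 2-fold higher, 991 had an expected free HS-5 level under 1/10 of their own level, and in 6 it reached at least 1/2. Of the same genes, 84.5% had a level in cocultured HS-5 cells at or above that in MM.1S monoculture. This share was 57.3% over all genes compared below and 20.6% in those 2-fold lower. The reason for these shares was not tested.

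To compare the cultures, UMIs were summed over the cells of each and scaled to CPM, and the log2 ratio of coculture over monoculture was taken with a pseudocount of 1. Over the 7837 genes whose mean reached 10 CPM, the median of this ratio was 0.24, and it was subtracted, so that a relative log2 ratio of 0 is the median gene. Relative ratios of at least 1 or at most -1 are called 2-fold higher or lower. By this measure 1015 genes (13.0%) were 2-fold higher in cocultured MM.1S cells and 762 (9.72%) were 2-fold lower. These shares are the background for every list below. A gene could reach the mean of 10 CPM through 1 culture alone, and 786 genes had under 10 CPM in monoculture, of which 407 were 2-fold higher. Of the 7051 genes with at least 10 CPM in monoculture, 608 (8.62%) were 2-fold higher. Without subtraction the counts were 1494 and 454, and with edgeR's TMM scaling, under which the median gene lay at -0.30, they were 584 and 1383, so a direction below is always relative to the median gene.

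**Figure D1:**
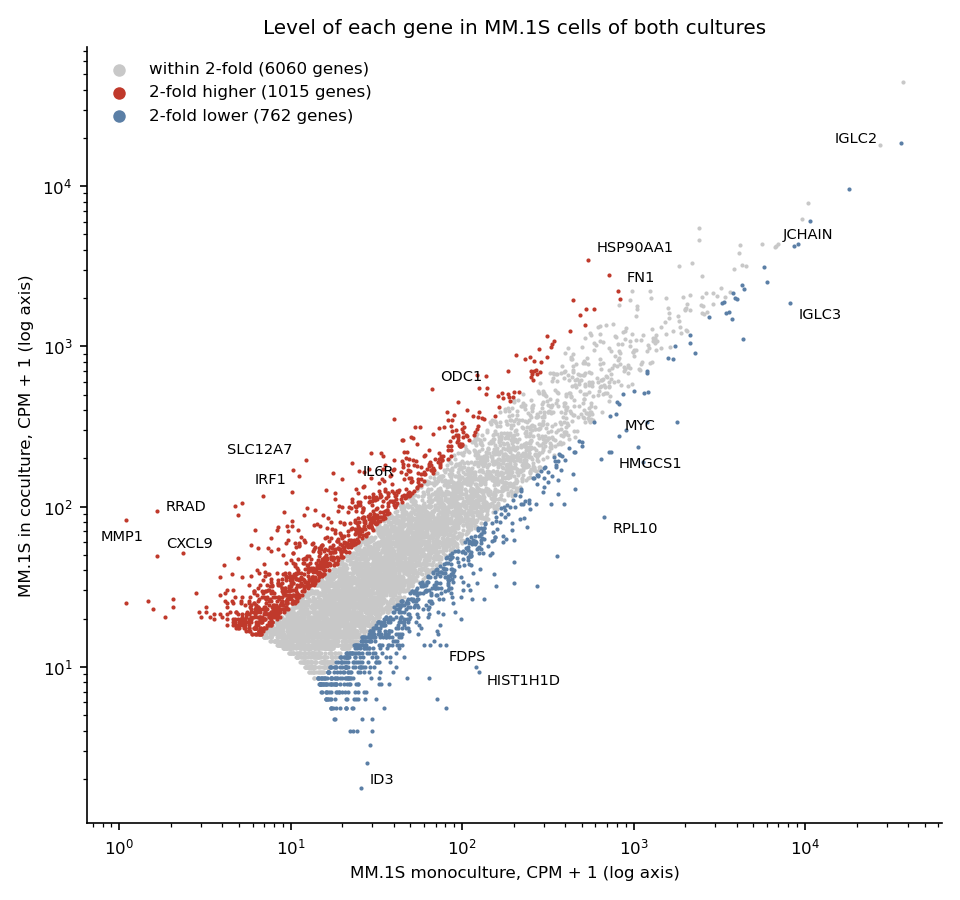
Level of each of the 7837 genes in MM.1S cells, with monoculture on the horizontal and coculture on the vertical log axis, both in CPM plus 1; each point is a gene. The 1015 genes that were 2-fold higher (red) include HSP90AA1, ODC1, IL6R and FN1, and the 762 that were 2-fold lower (blue) include IGLC2, IGLC3, RPL10 and HMGCS1.

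Genes that were higher and lower in coculture differed in transcript length. The median length in GENCODE release 29 was 3056 bases for the genes 2-fold higher, 1519 for those 2-fold lower and 2357 for all. Among the 1933 shortest genes 155 were 2-fold higher and 363 lower, and among the 1933 longest 385 were higher and 55 lower. The median relative ratio was -0.37 in the shortest and 0.34 in the longest. The part of length in the single results below was not tested.

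The calls were repeated on other cells. In the 560 cocultured MM.1S cells without a UMI of any HS-5 line gene (median 578 UMIs), 827 of the 1015 genes were again 2-fold higher and 602 of the 762 were again 2-fold lower. Against the 644 shallow cells of the monoculture with 387 to 1386 UMIs, the 10th and 90th percentiles of the cocultured cells, these numbers were 728 and 589. These cells had a median of 1182 UMIs and so were still deeper than the cocultured cells (668). The part of HS-5 RNA beyond the estimate of 1.73% was not tested.

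Among the genes of interleukin-6 signalling, the receptor gene IL6R and STAT3 were 2-fold higher in coculture, but the list of these genes was not higher as a group. IL6R (chr1:154405193-154469450 in GRCh38, GENCODE release 29), the ligand-binding subunit, had 28.4 CPM alone (25.2 to 31.8) and 213 in coculture (189 to 239.8), a 7.52-fold difference and a relative log2 ratio of 2.63. HS-5 cells held less of it, with 14 CPM alone and 10.1 in coculture. IL6ST, the signalling subunit gp130, had 69.1 and 139.8 CPM, a relative log2 ratio of 0.76. STAT3 itself went from 17.9 (15.4 to 20.7) to 93.2 CPM (77.5 to 111). In the opposite direction, the kinase gene JAK1 had 158 and 71.4 CPM and the interferon receptor subunit IFNAR2 31.9 and 15.03. Over the whole list of interleukin-6 receptor and JAK-STAT genes, 2 of 18 members with at least 10 CPM were 2-fold higher and 2 lower, and the median was -0.03.

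Of the 30 genes listed as STAT3-type response genes, 22 passed the level of 10 CPM, and 12 of these (54.5%) were 2-fold higher. Of these 12, 8 had under 10 CPM in monoculture and reached the limit through the coculture, where they had to be high, among them SOCS3, BCL3, IRF1 and CISH. Of the 14 members with at least 10 CPM in monoculture 4 were 2-fold higher (28.6% against 8.62% of all such genes). The median relative log2 ratio of the 22 was 1.28, the highest of the 32 lists drawn in the plot of lists. This median includes the 8 members that passed through the coculture, so the limit itself raised it and its rank. A median without them was not calculated. Some of these genes were known to be higher in these libraries when the list was written. SOCS3, the feedback inhibitor of JAK kinases, had 1.05 CPM alone (0.526 to 1.89) and 25.6 in coculture (17.7 to 35.7), and BCL3, a nuclear partner of NF-kB p50 and p52, 1.05 and 22.6. IRF1, a transcription factor of interferon and STAT signalling, went from 9.20 (7.45 to 11.2) to 122 CPM (104 to 142), while HS-5 cells held 34.2 and 31.9. MCL1, the survival protein on which myeloma cells are known to depend, had 49.7 (45.5 to 54.1) and 272 CPM (245 to 302).

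Other members with a 2-fold higher level were JUNB (39.2 and 195 CPM), CISH, a second inhibitor of cytokine receptors (4.70 and 31.6), and the corepressor gene SBNO2 (2.20 and 22.6). The receptor TNFRSF1A had relative log2 ratio 2.22, CEBPB 1.81, HIF1A 1.29 and BCL2L1 1.27. The 2 members that were 2-fold lower were PIM1, a survival kinase (51.4 and 22.6 CPM), and MYC (788 and 378). The summed level of the list, MYC included, was 1806 CPM in monoculture and 2048 in coculture. HS-5 cells had a median of 0.05 on the same list in coculture over monoculture.

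Promoters of 2 members of this list and of 2 interferon genes are shown because they hold the short motifs by which STAT and IRF factors are known to bind. The sequences are from RefSeq (GRCh38.p14), from bases before the transcription start, 5′ to 3′ on the strand of the gene, with motif matches in capitals. The GAS motif was searched as TTCNNNGAA and the ISRE-like motif as GAAANNGAAA, on both strands, in the 250 bases before to 50 after the start of each gene.
IRF1, chr5:132490849-132490937, minus strand: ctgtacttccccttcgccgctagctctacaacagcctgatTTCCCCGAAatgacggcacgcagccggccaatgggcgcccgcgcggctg
CISH, chr3:50611838-50612024, minus strand: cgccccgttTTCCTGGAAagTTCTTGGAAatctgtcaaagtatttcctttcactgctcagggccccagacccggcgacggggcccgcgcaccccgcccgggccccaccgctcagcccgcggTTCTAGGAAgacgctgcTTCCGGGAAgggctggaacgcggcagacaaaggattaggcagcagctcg
TAP1, chr6:32853783-32853878, minus strand: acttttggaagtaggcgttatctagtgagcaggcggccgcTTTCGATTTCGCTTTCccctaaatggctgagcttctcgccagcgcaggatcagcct
CXCL9, chr4:76007631-76007720, minus strand: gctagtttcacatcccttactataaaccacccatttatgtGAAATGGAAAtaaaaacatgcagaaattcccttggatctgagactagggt
The IRF1 promoter held 1 GAS match, 124 bases before the start, and the CISH promoter 4 matches. TAP1 held 2 overlapping ISRE-like matches and CXCL9 held 1. A GAS match was present in 7.88% of all 27305 promoters and in 5 of the 24 STAT3-type promoters found in RefSeq, and an ISRE-like match in 3.65% of all promoters, in 27 of 41 interferon-stimulated genes and in 9 of 14 MHC class I genes. Of the 6017 promoters of genes tested, 6.53% held a GAS match and 2.93% an ISRE-like match. These shares were 5.85% and 3.81% in 735 promoters of genes 2-fold higher, and 7.20% and 1.33% in 528 promoters of genes 2-fold lower. The genes shown were all 2-fold higher, but many others with a match were not. With a GAS match, 2 of 3 tested STAT3-type genes and 2 of 9 tested interferon-stimulated genes were 2-fold higher. With an ISRE-like match, 5 of 23 tested interferon-stimulated genes and 3 of 8 tested MHC class I genes were. IFIT1 and IFI27, both lower in coculture, also held an ISRE-like match. A match describes the letters only.

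Interferon-stimulated genes were unevenly higher. Of 43 members with at least 10 CPM, 11 (25.6%) were 2-fold higher, 1 was 2-fold lower, and the median was 0.37. IRF1 is 1 of these 11 and was also counted among the STAT3-type genes above, so the 2 lists are not separate. Of the 35 with at least 10 CPM in monoculture, 6 (17.1% against 8.62%) were 2-fold higher. CXCL9, a chemokine typical of interferon-gamma, had 7 UMIs (0.671 CPM, 0.27 to 1.38) in monoculture and 64 UMIs (48.1 CPM, 37.1 to 61.4) in coculture, and at most 0.807 CPM in both HS-5 groups. The guanylate-binding protein genes GBP1 and GBP2 had 0.863 and 1.92 CPM alone and 19.5 and 21.05 in coculture. APOL6, an apolipoprotein L gene, went from 21.8 (19.02 to 24.8) to 186 CPM (164 to 211), and its relative APOL2 from 21.9 to 105. The antiviral GTPase MX1 had 98.7 and 241 CPM, and PARP9, PARP14 and TRIM25 had relative log2 ratios of 1.55, 1.02 and 1.14. Against the shallow monoculture cells MX1, PARP9 and PARP14 were at 0.25, 0.40 and 0.27, no longer past 2-fold. Of the 36 CXCL10 UMIs in coculture, 17 came from 1 cell, so its relative ratio of 1.19 rests largely on that cell. IFIT1, a sensor of viral RNA and a classical target of type I interferon, was lower, with 20.1 and 10.5 CPM, and IFI27 had 72.5 and 43.6.

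In the machinery that loads peptides on MHC class I, 5 of 16 members (31.2%) were 2-fold higher and none lower, with a median of 0.45. Of the 15 with at least 10 CPM in monoculture, 4 (26.7% against 8.62%) were 2-fold higher. The peptide transporter subunits TAP1 and TAP2 had 17.2 and 29.6 CPM in monoculture and 120.3 and 88.7 in coculture. NLRC5, the transactivator of class I genes, went from 7.48 (5.91 to 9.33) to 33.8 CPM (24.7 to 45.3). The immunoproteasome subunit PSMB10 had 29.4 and 81.9 CPM and the trimming peptidase ERAP2 29.6 and 78.9. B2M, the light chain of all class I molecules, lay on the other side of the median gene, with 9556 and 6197 CPM, and TAPBP, which holds empty class I molecules at the transporter, had 216 and 163. The summed level of the list, most of it B2M, was lower in coculture, 13424 CPM alone and 11590 in coculture.

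On the lists of immediate early genes and of chemokines and cytokines, which leave out CXCL9, the highest ratio was that of CCL2, a chemokine that attracts monocytes. It went from 4.22 (3.06 to 5.66) to 104 CPM (87.2 to 123) in MM.1S cells, and from 21.8 to 88.8 in HS-5 cells. Its expected free HS-5 level in cocultured MM.1S cells was 1.53 CPM. CCR1, a chemokine receptor of myeloma cells, had 288 (277 to 298) and 794 CPM (747 to 843), and TGFB1 had 6.81 and 30.8. The phosphatase DUSP5, a nuclear brake on ERK, went from 5.94 to 115 CPM, and the stress genes GADD45A and GADD45B from 170 and 25.9 to 512 and 134. Lower levels were seen for BTG2, an antiproliferative early gene (201 and 60.9 CPM), for DUSP1 (42.7 and 23.3) and for the lymphotoxin gene LTB (56.4 and 16.5). CXCL8 had 6.90 and 26.3 CPM, and its expected free level from HS-5 cells, 21.5 CPM, was larger than this difference. Counted by list, 8 of 23 immediate early genes (34.8% against 13.0% of all genes) were 2-fold higher and 3 lower (median 0.68). Of these 8, 3 had under 10 CPM in monoculture. Of the 19 members with at least 10 CPM there, 5 were higher (26.3% against 8.62%). Among 13 chemokine and cytokine genes 6 (46.2%) were higher and 1 lower (median 0.90). Of these 6 higher genes, 5 had under 10 CPM in monoculture. Of the 8 members with at least 10 CPM there, 1 was higher (12.5% against 8.62%).

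NF-kB subunits, inhibitors and feedback genes had a median of 0.51, with 3 of 18 members 2-fold higher (16.7% against 13.0% of all genes) and 1 lower. Of the 14 with at least 10 CPM in monoculture, 2 (14.3% against 8.62%) were 2-fold higher. Beside BCL3, the higher members were NFKB1, which encodes p50 (14.9 and 43.6 CPM), and the kinase gene CHUK (10.1 and 27.1). NFKBIA, the inhibitor that NF-kB induces against itself, was at the median gene, with 94.99 CPM (89.2 to 101) and 112 (94.7 to 132) and a relative log2 ratio of -0.01. TNIP1, an inhibitor of the pathway, had 73.7 and 36.1. NFKB1 was at 0.48 against the shallow monoculture cells and at 0.40 in cocultured cells without an HS-5 line gene UMI, and CHUK was at 0.84 with TMM, none of them past 2-fold.

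Cytosolic chaperones were higher as a group in coculture. Of 21 heat shock proteins and co-chaperones, 7 (33.3%) were 2-fold higher, none was 2-fold lower and 20 lay above the median gene, with a median of 0.71. Of the 19 with at least 10 CPM in monoculture, 6 (31.6% against 8.62%) were 2-fold higher. The summed level of the list was 7585 CPM in monoculture and 17687 in coculture. HSP90AA1 (chr14:102080738-102139699), the inducible form of the HSP90 chaperone, had 540.2 CPM (526 to 554) and 3449.6 (3351 to 3551). HS-5 cells held more, 6266 CPM alone and 3923 in coculture, and the expected free level in MM.1S cells was 67.8 CPM. HSPH1, an exchange factor of HSP70, went from 125 (119 to 132) to 550.3 CPM (511 to 592), and the inducible HSP70 gene HSPA1B from 23.7 (20.8 to 26.8) to 101 (85.1 to 120.1). HSPA1B has a near-identical copy, HSPA1A, with which counting can split reads. BAG3, HSPA4, DNAJA1 and CHORDC1 had relative log2 ratios of 1.80, 1.51, 1.21 and 1.19. At the other end, DNAJB4 had 16.4 and 10.5 CPM and the mitochondrial chaperone TRAP1 was at the median gene (0.01).

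Most genes of ribosome assembly lay above the median gene, though few past 2-fold, and MYC, known as their activator, lay below it. MYC had 788 CPM alone (771 to 805) and 378 in coculture (346 to 413). Of 39 genes on the list of MYC and ribosome biogenesis, 31 lay above the median gene, 7 (17.9% against 13.0% of all genes) were 2-fold higher, and MYC was the only one 2-fold lower. The summed level was 7831 and 13051 CPM. NOP56, a core protein of the particles that methylate ribosomal RNA, had 232 and 833 CPM, and the helicase DDX21 254 and 674. UTP20 and RRP12, factors that process the small and the pre-ribosomal subunits, went from 22.8 and 18.02 to 81.9 and 61.6. NHP2 had the lowest relative ratio after MYC (-0.62).

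In the polyamine pathway the synthetic enzymes were higher. ODC1 (chr2:10439968-10448504), the rate-limiting enzyme, had 65.5 CPM alone (60.6 to 70.6) and 539 in coculture (500.2 to 579.9), an 8.23-fold difference. The next enzymes, spermidine synthase SRM and AMD1, had 81.5 and 73.7 CPM alone and 344 and 187 in coculture. HS-5 cells did not exceed 104 CPM of SRM. DHPS, which uses spermidine to modify the factor EIF5A, and DOHH, which completes that modification, lay on opposite sides. Their relative log2 ratios were -1.17 and 1.18, and EIF5A was at -0.98. Over the 11 genes measured the median was 0.15, near that of all genes.

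Amino acid supply and charging genes were 2-fold higher about as often as all genes, with 5 of 38 (13.2% against 13.0%) 2-fold higher, none lower and a median of 0.29. SLC7A5, the importer of large neutral amino acids, had 12.7 CPM (10.6 to 15) and 75.9 (61.8 to 92.3), and ATF4, the transcription factor of the amino acid response, 88.6 and 371. The synthetase genes TARS, CARS and GARS had relative log2 ratios of 1.16, 1.05 and 1.01. PSAT1 and DDIT3 had -0.87 and -0.85. Among 39 translation factors, 7 (17.9% against 13.0% of all genes) were 2-fold higher, 3 (7.69% against 9.72%) lower, and the median was 0.03. EIF3B, a scaffold of the initiation factor eIF3, stood apart from the rest with 39.01 CPM (35.3 to 42.99) and 353 (322 to 387), against 247 and 198 in HS-5 cells. EIF3A, EIF4G1 and EIF5B had relative log2 ratios of 1.40, 1.38 and 1.29, and EIF3L, another eIF3 subunit, went the other way with 26.6 and 6.01 CPM.

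Cytosolic ribosomal protein genes took a smaller share of RNA in coculture. They held 19.1% of all UMIs of MM.1S cells in monoculture (19.0 to 19.1%, exact Clopper-Pearson) and 12.2% in coculture (12.1 to 12.2%). In the cells themselves the interquartile range was 17.3 to 21.3% in monoculture and 10.8 to 13.6% in coculture, so these ranges did not overlap. HS-5 cells of the same coculture library had 8.74% against 7.60% alone, a difference in the other direction. In the 644 shallow monoculture cells of 387 to 1386 UMIs (median 1182) the share was 19.2%.

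Of 78 ribosomal protein genes measured, 28 (35.9%) were 2-fold lower against the background of 9.72%, 2 were 2-fold higher, and the median relative log2 ratio was -0.86. RPL10 (chrX:154389955-154409168) had 676 CPM alone and 85.7 in coculture, RPS27 355 and 48.1, RPS25 1136 and 188, and RPL3 1064 and 234. RPLP1, a stalk protein, went from 18144 to 9586 CPM. In HS-5 cells RPL10 had 34.7 and 41.96 CPM and RPS27 38.3 and 40.7, so that for these genes the MM.1S monoculture was the library that stood apart. The higher members were RPL9 (48.1 and 165 CPM) and RPS10 (54.7 and 135). Ribosomal protein genes are short (median 725 bases) and many have near-identical pseudogene copies, between which counting can divide or discard reads. GAPDH, another gene with many such copies, had 47.8 CPM alone and 15.8 in coculture. The part of length and of such copies in these values was not tested.

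Mitochondrially encoded genes were lower, and nuclear respiratory chain genes were 2-fold lower about as often as all genes but never 2-fold higher. All 13 mitochondrially encoded genes lay below the median gene, 8 of them 2-fold lower, with a median of -1.07. Together these 13 genes had 39792.5 CPM in monoculture and 21429.2 in coculture. Over all genes with a symbol starting with MT-, a wider set, the share of UMIs was 6.82% in monoculture (6.81 to 6.84%) and 4.05% in coculture (4.01 to 4.08%). MT-CO3, a subunit of cytochrome c oxidase, had 9100 and 4335 CPM, MT-CYB 3766 and 1489, and MT-ND4L, the lowest, 1791 and 335. MT-ATP8 was the closest to the median gene (-0.19). Among 76 nuclear genes of oxidative phosphorylation, 7 (9.21%, at the background of 9.72%) were 2-fold lower. None was 2-fold higher, against 13.0% of all genes, 60 lay below the median gene, and the median was -0.50. NDUFS7 of complex I had 33.8 and 4.51 CPM, and SDHA and SDHD of complex II -1.37 and -1.76 on the relative log2 scale. In HS-5 cells the same lists had medians of 0.91 and 0.50, in the opposite direction. The share of UMIs on all MT- genes was lower in coculture in HS-5 cells too, 2.79% alone and 2.23% in coculture. For mitochondrial RNA the direction in HS-5 cells thus depended on the set of genes.

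Enzymes of cholesterol synthesis were lower in coculture. Of 32 genes of cholesterol and fatty acid synthesis, 10 (31.2%) were 2-fold lower, none was 2-fold higher and the median was -0.55. HMGCS1, which makes the substrate of HMG-CoA reductase, had 734 CPM (718 to 751) in monoculture and 219 (194 to 245) in coculture. FDPS, which makes farnesyl pyrophosphate, had 73.7 (68.6 to 79.1) and 12.8 (7.44 to 20.5), and MSMO1, a sterol demethylating enzyme, 394 (382 to 406) and 102 (85.8 to 121). Other members past 2-fold included LSS, ACAT2, HSD17B7, MVK, DHCR7 and IDI1, with relative log2 ratios between -1.57 and -1.03. Not every member was lower, as SREBF2, a transcription factor that controls the pathway, had 38.5 and 83.4 CPM. HS-5 cells had at most 12.5 CPM of HMGCS1 in both cultures and a list median of 0.22.

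Histone genes and cell cycle genes did not differ as one group. The linker histone genes HIST1H1D and HIST1H1E had 124 and 119 CPM in monoculture and 8.27 and 9.02 in coculture, relative log2 ratios of -3.996 and -3.83. HS-5 cells differed in the same direction, from 110.1 to 20.6 CPM for HIST1H1D and from 48.03 to 8.88 for HIST1H1E. HIST1H2AC, HIST1H1C and HIST1H2BD were also 2-fold lower, and the replication-independent histone gene H3F3B was 2-fold higher (830 and 1972 CPM). Of 14 histone genes, 6 (42.9% against 9.72% of all genes) were 2-fold lower and 1 higher. Replication-dependent histone mRNAs have no poly(A) tail, and Drop-seq captures poly(A), so their levels are not levels of all their RNA.

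Mitosis genes had a median of -0.39, with 5 of 39 2-fold lower (12.8% against 9.72%) and none higher, and S-phase genes one of 0.22, with 3 higher and 2 lower of 40. HMGB2 had 443 and 159 CPM, CCNB2, a mitotic cyclin, 84.5 and 36.1, and the proliferation marker MKI67 40.4 and 85.7. Both medians differed with the choice of monoculture cells, and against the shallow cells of 387 to 1386 UMIs (median 1182) they were 0.66 and 0.89, and CCNB2 was at 0.14.

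Immunoglobulin genes lay below the median gene, while the transcription factors of plasma cells lay on both sides of the median gene. All 7 immunoglobulin genes with at least 10 CPM lay below the median gene, 3 of them 2-fold lower, and 6 of the 7 are MM.1S line genes that helped to assign the cocultured cells. The summed level was 54817 and 26913 CPM. IGLC3 differed more than IGLC2, with relative log2 ratios of -2.37 and -1.22, and these genes are nearly identical, so the split of reads between them is uncertain. IGLV2-28, a lambda variable segment, had 272 and 30.8 CPM. Among the transcription factors of plasma cells, PRDM1, which drives their differentiation, was higher, with 36.8 CPM (33.2 to 40.7) and 153 (133 to 176). XBP1, the factor of the secretory programme, had 419 and 264 CPM, MAF, the oncogene of this line, 1097 and 706, and IRF4, on which myeloma cells depend, 112 (106 to 118) and 108 (91.3 to 127). POU2AF1, the coactivator of immunoglobulin promoters, was at 0.81, and the median of the 11 factors measured was -0.29.

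Surface antigens lay on both sides. SDC1, the plasma cell marker CD138, had 38.1 CPM (34.5 to 42.1) alone and 125 (107 to 145) in coculture, and the hyaluronan receptor CD44 25.8 and 81.2. HS-5 cells held 126 CPM of SDC1 and 535 of CD44 in coculture, for expected free levels of 2.18 and 9.25. CD38 had 125 and 85.7 CPM. CD74, the invariant chain, and CD55, an inhibitor of complement, were 2-fold lower, with 40.2 and 83.1 CPM alone and 16.5 and 33.8 in coculture. Of 50 genes of ER folding and translocation, 6 (12% against 9.72% of all genes) were 2-fold lower and none higher, with a median of -0.17. FKBP11, a secretory prolyl isomerase, had 199.6 and 44.4 CPM, PRDX4, a peroxidase of the ER, 1585 and 843, and HERPUD1 and DNAJB9, genes of the unfolded protein response, -1.17 and -1.35 on the relative log2 scale. In the BCL2 family 2 of 9 members measured, MCL1 and BCL2L1, were 2-fold higher (22.2% against 13.0% of all genes). BCL2L12 was 2-fold lower (52.5 and 27.8 CPM), 11.1% of the list against 9.72%. BCL2L1 had 6.71 CPM in monoculture and passed the limit through the coculture. Of the 8 members with at least 10 CPM in monoculture, 1 was higher (12.5% against 8.62%).

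Among all genes whose mean reached 100 CPM, SLC12A7 (chr5:1050376-1112035), a potassium-chloride cotransporter, had the highest relative ratio, 3.75. Its level was 11.3 CPM (9.36 to 13.5) in monoculture and 195 (172 to 219.9) in coculture, against 11.6 and 8.88 in HS-5 cells. The following genes included the adenylyl cyclase ADCY1 (32.5 and 216 CPM), the potassium channel KCNJ3 (33.5 and 206), the lysosomal protease CTSB (52.4 and 313) and the membrane glycoprotein GPM6A (56.1 and 314). VOPP1 and PPP1R14B had relative log2 ratios of 2.29 and 2.30. The expected free HS-5 level was at most 18.2 CPM in these genes. FN1, fibronectin, which is also a stromal marker, went from 810.3 (793 to 828) to 2221 CPM (2142 to 2303) in MM.1S cells and was lower in HS-5 cells (252 and 279).

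Between 10 and 100 CPM the highest ratios mixed genes of both lines. MMP1 and MMP3, collagenase and stromelysin, had 1 UMI each in monoculture and 81.2 and 24.1 CPM in coculture, below their expected free levels of 169.6 and 47.9 CPM from HS-5 cells. RRAD, a small GTPase and itself an HS-5 line gene, had 7 UMIs in monoculture and 124 in coculture (93.2 CPM, 77.5 to 111), as much as HS-5 cells hold (88.1 and 71.01), with an expected free level of 1.23. The epithelial-type transcription factor ELF3 had 1.34 CPM (0.734 to 2.25) and 50.4 (39.03 to 63.96), and at most 2.82 CPM in HS-5 cells. At the other end, ID3, an inhibitor of basic helix-loop-helix factors, had 258 UMIs in monoculture (24.7 CPM) and 1 in coculture (0.752 CPM, 0.019 to 4.19), while HS-5 cells had 28.5 and 59.7. The transcripts AC005324.4 and AC097534.2 had 79.3 and 69.97 CPM alone and 6 and 7 UMIs in coculture.

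To compare detection at equal depth, each cell was thinned to 500 UMIs, which left out none of the monoculture cells and 448 of the cocultured MM.1S cells. At this depth most cells miss a gene of low level, so these shares follow the mean level. They do not give the number of cells in which a gene differed. HSP90AA1 was detected in 20.4% of monoculture cells (exact interval 19.1 to 21.7%) and in 74.7% of cocultured cells (72.2 to 77.2%), and ODC1 in 3.04% and 23.8%. Without thinning, the shares for HSP90AA1 were 60.4% and 83.1% and those for IL6R 6.61% and 14.3%, at median depths of 2201 and 668 UMIs. IL6R was found in 1.37% (1.03 to 1.78%) and 10.3% (8.60 to 12.1%), MCL1 in 2.71% and 13.7%, IRF1 in 0.253% and 5.92% and STAT3 in 0.684% and 4.42%. As a level of background, the HS-5 gene MMP1 was found in 4.17% of cocultured MM.1S cells (3.11 to 5.46%) and in 95.2% of cocultured HS-5 cells, where its level was 9817 CPM. CXCL9 was found in 2.17% of cocultured MM.1S cells against 0.0554% of cocultured HS-5 cells, and IL6R in 0.665% of the latter. SOCS3 was detected in 0.076% (0.0157 to 0.222%) and 1.001% (0.518 to 1.74%) of MM.1S cells and in 1.22% of cocultured HS-5 cells. HMGCS1 was found in 26.4% of monoculture and 8.84% of cocultured cells, MSMO1 in 17.5% and 5.004%, and RPL10 in 30.1% and 4.67%.

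Chaperone RNA was spread over nearly all cocultured cells. At 500 UMIs the heat shock list had a median of 3 UMIs per cell in monoculture (10th to 90th percentile 1 to 7) and of 8 in coculture (4 to 14), and 5.45% and 0.417% of cells had none of it. Interferon-stimulated genes had a median of 1 and 2 UMIs, with 35.5% and 20.7% of cells without one, and STAT3-type genes, MYC included, a median of 1 in both, with 42.4% and 37.4% without one.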

How the data were processed

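Cells of the MM.1S monoculture, the HS-5 monoculture and their coculture (4 h per the labels) were profiled by Drop-seq, 1 library each, with about 4000 cells per culture intended per the labels. The authors deposited 1 table of UMI counts per library, genes by cell barcodes, without normalization, holding 3994, 3865 and 3963 barcodes and 10433182, 6143448 and 3981392 UMIs. The submitters' processing notes name Cell Ranger 3.0.2, STAR 2.5.3a, Subread featureCounts 1.6.4, SAMtools 1.9, UMI-tools 1.0.0 and GRCh38/hg38, with no role or order, and the use of strand in counting is not given in the sources used here. Reads of overlapping genes and of near-identical copies may therefore be misassigned.

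Cells with at least 200 genes were kept. Coculture cells were assigned by line genes, UMIs were summed per group and scaled to CPM, and the median gene was set to 0 as described above. Free HS-5 RNA was estimated from the summed level of HS-5 line genes in cocultured MM.1S cells over that in cocultured HS-5 cells. Since each culture was 1 library, no model was fitted and no p-value is given. Named genes were, by relative ratio, the 12 highest and 12 lowest of at least 100 CPM on average, the 5 highest and 5 lowest between 10 and 100 CPM, 2 at either end of each list with other members past 2-fold, the 5 line markers, and SDC1, CD38, NFKBIA, IRF4, MYC, SOCS3, STAT3, IL6R, IL6ST and MCL1. Some genes that this rule picks are not reported here. FN1, COL1A1, THY1, LUM and POSTN belong to the stromal marker list. The members and all 36 gene lists were chosen with earlier results of these data known. Of 43913 symbols, 97.3% were found in GENCODE release 29, the source of lengths and coordinates. Promoters came from RefSeq (GRCh38.p14). Of 1074 list entries, 5 symbols were not matched and are not analysed here.

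The ratio was tested on simulated counts of 7245 genes at the depth of these groups. All 50 genes simulated at 4-fold and 38 at 0.25-fold passed 2-fold, as did 46 of 50 at 2.5-fold, 37 of 43 at 0.4-fold and 8 of 7064 unchanged genes. The simulated counts held Poisson counting error only, and the changed genes were drawn from those with at least 10 CPM in monoculture. Differences between libraries, cells or free RNA were not simulated, so these numbers are not a rate of false calls for the cultures. Alternatives were other cell filters, assignment limits, monoculture cells between the 10th and 90th percentile of UMIs of the cocultured cells, equal weight per cell, subtraction of HS-5 RNA, another pseudocount, other scalings, other minimum levels and, added after the data were seen, only cocultured cells without an HS-5 line gene UMI. Python 3.11.15 with numpy 2.4.6, pandas 2.3.3, scipy 1.17.1 and matplotlib 3.10.9, and R 4.3.3 with edgeR 4.0.16 (TMM factors only), were used.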

Additional observations from a re-analysis of the deposited data

Results flagged for a closer look

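For 8 gene lists the median relative log2 ratio of coculture over monoculture lay on opposite sides of the median gene in MM.1S and HS-5 cells. Genes of these lists were lower in cocultured MM.1S cells and higher in cocultured HS-5 cells for mitochondrially encoded genes (-1.07 and 0.91), nuclear oxidative phosphorylation genes (-0.50 and 0.50), cytosolic ribosomal proteins (-0.86 and 0.23) and cholesterol and fatty acid synthesis (-0.55 and 0.22). The order was the opposite for immediate early genes (0.68 and -0.21), MYC and ribosome biogenesis (0.59 and -0.31), chromatin and Mediator regulators (0.52 and -0.36) and amino acid response and tRNA synthetases (0.29 and -0.24). Over all genes with a symbol starting with MT-, a wider set than the list, the share of UMIs was lower in coculture in both lines. It was 6.82% and 4.05% in MM.1S cells and 2.79% and 2.23% in HS-5 cells. Both sets of cocultured cells came from 1 library and each line had 1 monoculture library, and the difference between the lines was not tested.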

How the results depend on the processing

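Of 232 named genes past 2-fold, 223 kept their sign and 129 stayed past 2-fold in the same direction under all 13 alternatives run for single genes. Depth was the limit for low genes, since 3 UMIs were worth 2.26 CPM in cocultured MM.1S cells. The counts of genes 2-fold higher and lower, 1015 and 762, depended on the scaling: without setting the median gene to 0 the lower count was 454, and with TMM the counts were 584 and 1383. Without a minimum level they were 5195 and 1651, and with a minimum of 50 CPM 380 and 236, where fewer genes were tested.

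Against the 644 shallow monoculture cells (median 1182 UMIs against 668 in coculture), the median was 0.66 for mitosis and 0.89 for S-phase genes, CCNB2 was at 0.14 and NUSAP1 at 0.079. BCL2L12 (-0.48), HMGB2 (-0.72), MIAT (0.75), MX1 (0.25), NFKB1 (0.48), PARP9 (0.40) and PARP14 (0.27) were then no longer past 2-fold, nor were CXCL10 (0.21), DUSP1 (-0.34), HSD17B7 (-0.58) and NFKB1 (0.40) in cocultured cells without an HS-5 line gene UMI. The metallothionein median of 0.88 was 0.20 with HS-5 RNA subtracted and 0.12 in cocultured cells without an HS-5 line gene UMI. In those cells the BCL2 family median was -0.21. Without a minimum level the median was 0.57 for stromal markers, 0.30 for plasma cell transcription factors and -0.34 for immunoglobulin genes. With a minimum of 50 CPM it was -0.57 for NF-kB genes, 1.34 for the BCL2 family and 0.94 for G1 cyclins, with fewer genes in each. The cause of the values with shallow cells was not tested. With HS-5 RNA subtracted, CXCL8 was at -0.65, MMP1 at -0.36, MMP3 at -0.36 and MT2A at -2.26. In cocultured cells without an HS-5 line gene UMI, CCND1 was at -4.90, CXCL8 at -3.25, MMP1 at -0.40, MMP3 at -0.40, MT2A at -2.29, RRAD at -1.01 and SGK1 at -2.98, all of which are HS-5 line genes and so at 0 there by construction. No paired analysis was possible because each culture was 1 library.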

Other observations

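Actin cytoskeleton genes lay on both sides of the median gene, with a median of -0.13. Of 30, 6 (20% against 13.0% of all genes) were 2-fold higher and 2 (6.67% against 9.72%) lower. ACTG1, cytoplasmic gamma-actin, had 721 CPM alone (704 to 737) and 2775 in coculture (2687 to 2866), and the crosslinker filamin A, FLNA, 19.4 and 76.7. CORO1A, a coronin of blood cells, and TMSB4X, which binds actin monomers, were lower, with relative log2 ratios of -1.18 and -1.06. Of 8 adhesion receptors, CD44 was the only one 2-fold higher, and CD58, the ligand of CD2, and the integrin ITGB7, which binds MAdCAM-1 and E-cadherin, were 2-fold lower (37.4 and 24.6 CPM alone, 18.8 and 13.5 in coculture).

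Long non-coding RNAs differed in both directions. NEAT1, the scaffold of paraspeckles, had 442 CPM alone and 1939 in coculture, and MIAT 44.3 and 184. GAS5, which hosts small nucleolar RNAs, had 641 and 198 CPM, and the other hosts SNHG6 and SNHG12 lay at -1.71 and 1.76. Of 20 such genes, 4 (20% against 13.0% of all genes) were 2-fold higher and 5 (25% against 9.72%) lower.

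The hypoxia markers CA9 and BNIP3 were lower, with 67.4 and 87.99 CPM in monoculture and 13.5 and 38.3 in coculture, while the lactate exporter SLC16A3 had 11.02 and 45.9 and HIF1A itself was higher (1.29). Over 30 glycolysis and hypoxia genes, 5 (16.7% against 13.0% of all genes) were 2-fold higher and 5 (16.7% against 9.72%) lower. TSC22D3, a glucocorticoid-induced leucine zipper gene, had 157 CPM alone (149 to 165) and 30.8 in coculture (22.1 to 41.8). Splicing factors and chromatin regulators had medians of 0.31 and 0.52. In them 3 of 35 (8.57%) and 4 of 33 genes (12.1%) were 2-fold higher, not above the 13.0% of all genes, and none was lower. The examples HNRNPD and MED13 stood at 1.48 and 1.45. Proteasome genes were near the median gene (0.13), with PSME4, a proteasome activator, at 1.30 and PSMD10 at -1.52. Among G1 regulators CDK6 had 87.3 and 269 CPM and the pocket protein RBL2 38.8 and 8.27. CCND1 had 23.8 and 69.9 CPM, and its HS-5 level of 1034 gives an expected free level of 17.9. Of 3 metallothionein genes measured, MT2A had 3.07 and 42.1 CPM with an expected free level of 89.1.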
